A study of Mus musculus with 11 samples.

Results

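T helper cells are divided into lineages by a few transcription factors and by the cytokines they secrete, and 8 genes of that system were followed here by symbol across sorted mouse skin cells: Tbx21, Eomes, Gata3, Foxp3, Ifng, Il17a, Il13 and Cd40lg. They are 8 of the 55536 genes in the count files, and each symbol matched 1 gene. Tbx21 (T-bet) directs type 1 cells and Eomes, its relative, acts in cytotoxic and memory T cells, while Gata3 directs type 2 cells and Foxp3 regulatory T cells. Interferon gamma (Ifng) is the type 1 cytokine, interleukin 13 (Il13) a type 2 cytokine and interleukin 17A (Il17a) the type 17 cytokine. Cd40lg, the CD40 ligand, is carried by activated helper T cells and licenses B cells and dendritic cells. Skin holds such T cells in the epidermis and around hair follicles, and Gata3 is also a gene of keratinocytes, where it takes part in hair follicle and barrier development.

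The cells were thermolysin-released epidermal cells of dorsal skin from male CD4Cre R26-tdT mice on a C57Bl6/N background, in which the Cd4 promoter drives Cre and cells that have expressed it, and their progeny, carry tdTomato (tdT). Since thymocytes pass through a stage with both CD4 and CD8, this driver also marks CD8+ T cells. All cells came from a CD49f+CD34+ gate and were sorted by Sca-1 and tdT into Sca-1+ tdT+ (3 libraries), Sca-1+ tdT- (2), Sca-1neg tdT+ (3) and Sca-1neg tdT- (3). Each of the 11 libraries pooled 2 mice, replicate 1 of each group was taken at 29 weeks and the others at 32 weeks, and total counts ran from 17409131 to 46542177.

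Several libraries stood apart from their labels. One entry of the files, read as the tdT tracer, had 224 CPM (counts scaled to library depth) or more in each Sca-1+ tdT+ library and in Sca-1neg tdT+ replicate 3, and 133 CPM in replicate 1 of that group. All tdT- libraries had 4.89 CPM or less. The library labelled Sca-1neg tdT+ replicate 2 had 2.05 CPM, so it sat among the tdT- libraries. Liver transcripts marked 3 libraries, both Sca-1neg tdT+ replicates 1 and 2 and Sca-1neg tdT- replicate 2: their Alb level was 4389 to 9554 CPM, with 37.2 CPM or less elsewhere. Cd34, a gene of the gate, was at 22.3 to 35.6 CPM in Sca-1+ tdT+, 319 and 382 CPM in Sca-1+ tdT-, 467 to 841 CPM in Sca-1neg tdT+ and 638 to 1129 CPM in Sca-1neg tdT-. Krt14, a basal keratinocyte gene, was at 2612 CPM or more in every library.

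Markers of T cells were detected in all 4 sorts and were highest in Sca-1+ tdT+. The summed level of 13 T cell genes was 259, 818 and 515 CPM in Sca-1+ tdT+, 57.6 and 51.0 CPM in Sca-1+ tdT-, 28.9, 38.9 and 52.1 CPM in Sca-1neg tdT+, and 8.11, 10.6 and 7.80 CPM in Sca-1neg tdT-. The make-up of that sum differed between sorts. In Sca-1neg tdT-, Lck and Cd5 averaged 2.71 and 2.40 CPM, above Cd3e at 0.602 and Trac at 0.170 CPM. In Sca-1+ tdT+, Cd3e averaged 86.6 and Trac 25.5 CPM, with Lck at 43.9 and Cd5 at 8.18 CPM. In bulk samples, fewer T cells and less RNA per T cell cannot be told apart, and this holds for every value below. Cd4 itself did not exceed 4.63 CPM in any library, while Cd8a was at 27.6, 85.8 and 73.5 CPM in Sca-1+ tdT+ and at most 4.46 CPM elsewhere. Genes of epidermal gamma-delta T cells (7 genes summed) were at 206 to 384 CPM in Sca-1+ tdT+, 64.7 and 72.4 CPM in Sca-1+ tdT-, 17.7 to 37.6 CPM in Sca-1neg tdT+ and 3.85 to 5.18 CPM in Sca-1neg tdT-. As background, CD8+ and gamma-delta T cells make Ifng as well as type 1 helper cells do. These T cell sums stand beside every member result below, and their part in those results was not tested.

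Promoter windows of 3 members are shown because they belong to opposing programmes and all had their highest levels in the same sort: Tbx21 and Ifng of type 1, which were called between sorts, and Il13 of type 2, which was not. Each runs 5′ to 3′ on the gene's strand, from 250 bases before to 50 bases after the RefSeq transcription start (RefSeq, GRCm38.p6). The windows are chr11:97115282-97115581 on the minus strand for Tbx21, chr10:118440796-118441095 on the plus strand for Ifng and chr11:53634653-53634952 on the minus strand for Il13. Capitals mark the GATA core.
Tbx21: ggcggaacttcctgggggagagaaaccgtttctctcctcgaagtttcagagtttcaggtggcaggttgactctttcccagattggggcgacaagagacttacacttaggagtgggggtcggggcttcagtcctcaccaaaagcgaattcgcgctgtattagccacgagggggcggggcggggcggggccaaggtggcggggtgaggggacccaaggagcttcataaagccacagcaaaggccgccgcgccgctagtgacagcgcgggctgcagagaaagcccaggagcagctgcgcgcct
Ifng: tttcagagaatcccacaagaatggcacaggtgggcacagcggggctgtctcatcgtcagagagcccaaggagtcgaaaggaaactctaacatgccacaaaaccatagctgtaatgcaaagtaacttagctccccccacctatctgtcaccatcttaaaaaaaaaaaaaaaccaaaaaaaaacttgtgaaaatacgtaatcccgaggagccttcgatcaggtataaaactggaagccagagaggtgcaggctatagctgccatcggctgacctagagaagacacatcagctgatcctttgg
Il13: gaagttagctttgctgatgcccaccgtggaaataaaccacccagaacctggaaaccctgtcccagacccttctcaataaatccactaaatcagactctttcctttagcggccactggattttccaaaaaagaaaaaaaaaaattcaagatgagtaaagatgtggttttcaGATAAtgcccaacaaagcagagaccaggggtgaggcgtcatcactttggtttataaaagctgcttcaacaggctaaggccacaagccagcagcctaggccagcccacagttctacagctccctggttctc
The windows were searched on both strands for the core bound by GATA factors, GATAA. On the opposite strand it reads TTATC. They were also searched for the core bound by T-box factors such as T-bet, GTGTGA. On the opposite strand that one reads TCACAC. The motifs can share their GA, but no window of a member held both. The GATA core occurs in 25.4% and the T-box core in 14.5% of the 32851 windows of this length. The Il13 window holds 1 GATA core, which begins 80 bases before the start, and the Tbx21 and Ifng windows hold neither motif. A match here is a description of the letters, with no measurement of binding.

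Among the regulators, Tbx21 was higher in Sca-1+ tdT+ than in either neighbouring sort, with the lowest adjusted p of the members tested in both contrasts. Tbx21 (chromosome 11, 97098071 to 97115331, minus strand, mm10) was at 6.84, 17.7 and 21.96 CPM in Sca-1+ tdT+, 1.33 and 0.795 CPM in Sca-1+ tdT-, 1.77, 0.268 and 0.716 CPM in Sca-1neg tdT+, and 0.227, 0.238 and 0.585 CPM in Sca-1neg tdT-. The 3 Sca-1+ tdT+ libraries all lay above the other 8, and both Sca-1+ tdT- libraries lay above the 3 Sca-1neg tdT- libraries. In edgeR's quasi-likelihood test, with Benjamini-Hochberg adjustment over 20307 genes, Tbx21 was higher in Sca-1+ tdT+ than in Sca-1neg tdT+ by 4.07 ± 0.76 (log2 fold change ± SE, adjusted p = 0.00618). It was also higher in Sca-1+ tdT+ than in Sca-1+ tdT-, by 3.86 ± 0.89 (adjusted p = 0.0456). This second call lay close to the threshold of 0.05 and was lost in 10 of 18 alternative analyses. It was lost when any 1 of the 5 Sca-1+ libraries or of the 3 Sca-1neg tdT- libraries was left out. The replicate block (adjusted p = 0.0709) and the 32-week libraries alone also lost it. At 32 weeks, or with a Sca-1+ tdT- library left out, Sca-1+ tdT- held 1 library.

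Tbx21 did not pass the test in the other contrasts. Its log2 fold change was 1.39 ± 0.70 for Sca-1neg tdT+ over Sca-1neg tdT- (adjusted p = 0.641) and 1.59 ± 0.76 for Sca-1+ tdT- over Sca-1neg tdT- (adjusted p = 0.267). The tdT effects of the Sca-1+ and Sca-1neg fractions differed by 2.47 ± 1.06 (adjusted p = 0.381), so a larger tdT effect in Sca-1+ cells was not shown. Set against the T cell genes of the same library, Tbx21 amounted to 2.64, 2.16 and 4.27 CPM per 100 CPM of the T cell sum in Sca-1+ tdT+, 2.31 and 1.56 in Sca-1+ tdT-, 6.10, 0.688 and 1.37 in Sca-1neg tdT+, and 2.80, 2.23 and 7.50 in Sca-1neg tdT-. On that scale the 4 groups overlapped.

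Eomes, the other T-box factor, was near the limit of detection. It had 0, 6 and 0 counts in Sca-1+ tdT+, 1 and 1 in Sca-1+ tdT-, 2, 0 and 0 in Sca-1neg tdT+, and 0, 9 and 0 in Sca-1neg tdT-. The low-count filter removed it from the main fit, and without the filter edgeR called it in none of the 5 comparisons (adjusted p = 0.796 to 1). A count of 0 allows up to 3 counts, which is 0.0645 to 0.172 CPM in a single library, counting error only. Eomes shares 118 of its 4155 exonic bases with the antisense gene Gm33460, which had 7 counts in the Sca-1neg tdT- library with 9 Eomes counts and 0 in all others.

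Gata3 had the highest level of the 8 members in every library, per kilobase of exon as well as in CPM. Gata3 (chromosome 2, 9857078 to 9890034, minus strand) was at 536, 281 and 534 CPM in Sca-1+ tdT+, 313 and 178 CPM in Sca-1+ tdT-, 133, 174 and 192 CPM in Sca-1neg tdT+, and 154, 90.6 and 117 CPM in Sca-1neg tdT-. The Sca-1+ tdT+ libraries lay above all Sca-1neg libraries but overlapped Sca-1+ tdT-, where replicate 1 exceeded the lowest Sca-1+ tdT+ library. Gata3 was higher in Sca-1+ tdT+ than in Sca-1neg tdT+ by 1.44 ± 0.31 (adjusted p = 0.0127), a call lost in 3 of 18 alternatives. These were the fit without Sca-1neg tdT+ replicate 1 (adjusted p = 0.0547), the 32-week libraries alone and the fit without the 3 libraries with liver transcripts. The last of these left 1 library in Sca-1neg tdT+.

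The other Gata3 contrasts did not pass. Its log2 fold change was 0.88 ± 0.35 for Sca-1+ tdT+ over Sca-1+ tdT- (adjusted p = 0.271), 1.03 ± 0.33 for Sca-1+ tdT- over Sca-1neg tdT- (adjusted p = 0.105) and 0.47 ± 0.30 for Sca-1neg tdT+ over Sca-1neg tdT- (adjusted p = 0.735). In tdT- cells both Sca-1+ libraries nevertheless exceeded all 3 Sca-1neg libraries. Gata3 was highest in the sort with the highest T cell sum. Within that sort Gata3 was at 536, 281 and 534 CPM, with T cell sums of 259, 818 and 515 CPM in that order. The Sca-1neg tdT- libraries, with T cell sums of 7.80 to 10.6 CPM, held 90.6 to 154 CPM of Gata3. The part of T cells and of keratinocytes in its level was not tested. The 6 basal keratinocyte genes summed to 31781 to 38428 CPM in Sca-1+ tdT+, 23045 and 26038 CPM in Sca-1+ tdT-, 16901 to 22551 CPM in Sca-1neg tdT+ and 24843 to 25434 CPM in Sca-1neg tdT-. Gata3 shares 232 of its 3978 exonic bases with other annotated genes, none above 6.31 CPM in any library.

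Foxp3, the regulator of regulatory T cells, was low and passed no test. Foxp3 (chromosome X, 7573644 to 7595245, plus strand) was at 0.799, 1.99 and 1.13 CPM in Sca-1+ tdT+, 0.221 and 0.126 CPM in Sca-1+ tdT-, 0.498, 0.268 and 0 CPM in Sca-1neg tdT+, and 0.351, 0.396 and 0.439 CPM in Sca-1neg tdT-. All 3 Sca-1+ tdT+ libraries lay above the other 8, and both Sca-1+ tdT- libraries lay below the 3 Sca-1neg tdT- libraries. The log2 fold change was 2.87 ± 1.34 for Sca-1+ tdT+ over Sca-1+ tdT- (adjusted p = 0.365), 2.32 ± 1.12 for Sca-1+ tdT+ over Sca-1neg tdT+ (adjusted p = 0.192) and -1.16 ± 1.25 for Sca-1+ tdT- over Sca-1neg tdT- (adjusted p = 0.655). For Sca-1neg tdT+ over Sca-1neg tdT- it was -0.61 ± 1.09 (adjusted p = 0.906).

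Relative to the T cell genes, Foxp3 was highest in Sca-1neg tdT-. It amounted to 0.220 to 0.308 CPM per 100 CPM of the T cell sum in Sca-1+ tdT+, 0.246 and 0.384 in Sca-1+ tdT-, 0 to 1.72 in Sca-1neg tdT+ and 3.72 to 5.63 in Sca-1neg tdT-. The sort with the lowest T cell sum thus had the most Foxp3 relative to that sum, from 15 to 18 Foxp3 counts per library. Lck and Cd5 were the highest genes of the sum in that sort, so the ratio is not a level per T cell. Foxp3 counts are uncertain, because 2082 of its 4577 exonic bases are shared with Ppp1r3f, Gm36995, Flicr or Ccdc22, and the library kit did not mark strand. Ppp1r3f was highest, at 5.84 CPM, in Sca-1neg tdT+ replicate 3, the library with 0 Foxp3 counts. It was lowest, at 0.340 CPM, in Sca-1+ tdT+ replicate 2, where Foxp3 was highest. The next lowest Ppp1r3f level, 0.418 CPM, was in Sca-1+ tdT- replicate 2, where Foxp3, at 0.126 CPM, had its lowest level above 0. The part of these neighbours in the Foxp3 counts was not tested.

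**Figure D1:**
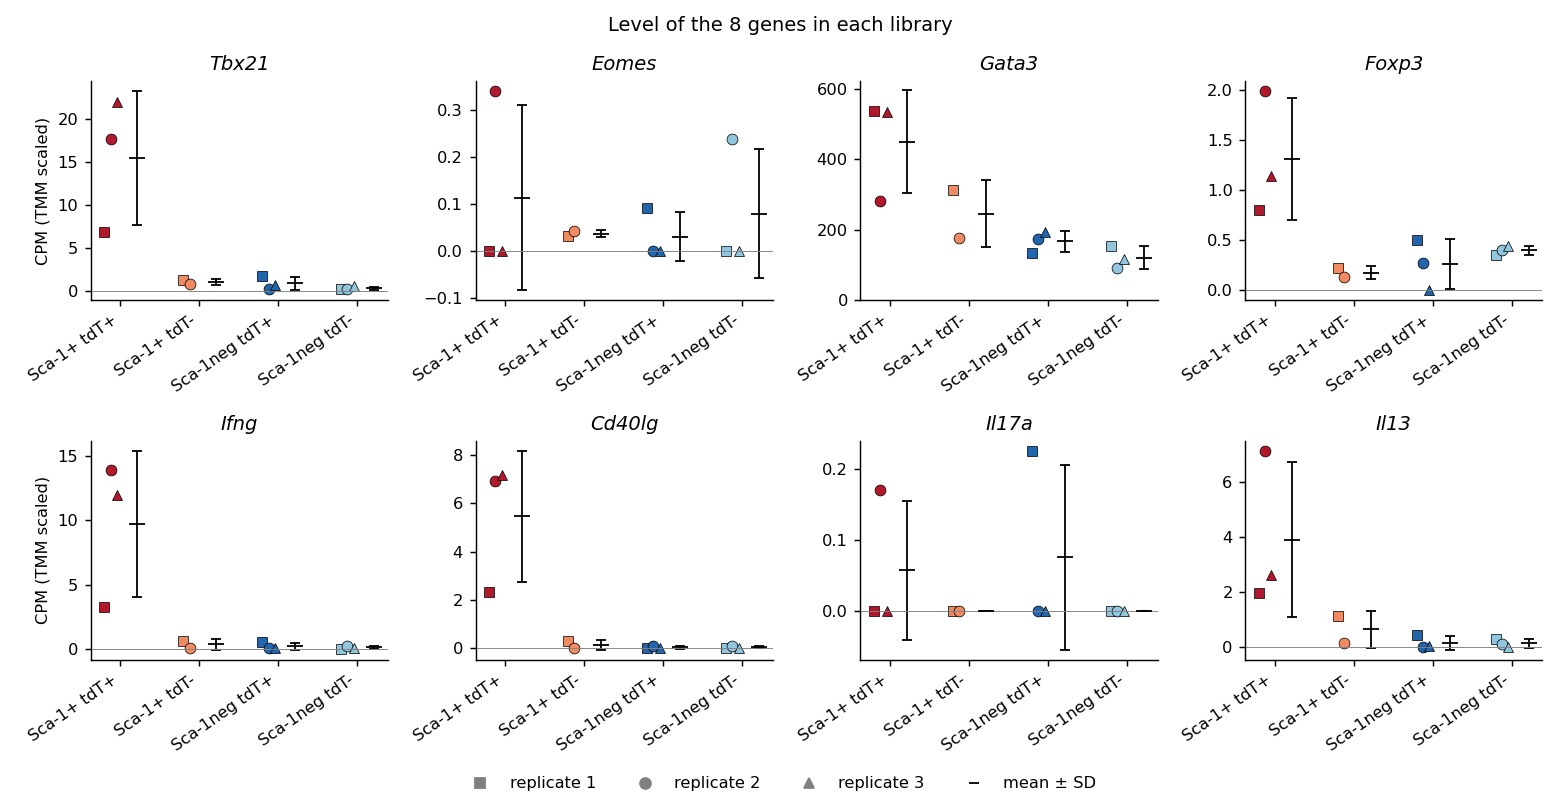
Level of each of the 8 members in every library, in CPM scaled by TMM, with 1 panel per gene and 1 column per sorted group. Points are libraries, with marker shape for the replicate number, and bars are group means with SD. Tbx21, Foxp3, Ifng, Cd40lg and Il13 had all 3 Sca-1+ tdT+ libraries above the other 8, and Gata3 was at 90.6 CPM or more in every library. The share of all genes with that order was not counted. Sca-1+ tdT+ libraries all exceeded those of Sca-1neg tdT+ for 15.4% of genes tested, and those of Sca-1+ tdT- for 15.8%.

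Of the cytokines, Ifng followed the pattern of Tbx21. Ifng (chromosome 10, 118441046 to 118445892, plus strand) was at 3.30, 13.95 and 12.01 CPM in Sca-1+ tdT+, 0.664 and 0.0837 CPM in Sca-1+ tdT-, 0.543, 0.107 and 0.0550 CPM in Sca-1neg tdT+, and 0.0206, 0.264 and 0.0975 CPM in Sca-1neg tdT-. The Sca-1+ tdT+ libraries lay above all others, whose levels rested on 1 to 21 counts each. Ifng was higher in Sca-1+ tdT+ than in Sca-1neg tdT+ by 5.32 ± 1.19 (adjusted p = 0.0147), a call lost in 1 of 18 alternatives, when Sca-1neg tdT+ replicate 2, the library at tracer background, was left out (adjusted p = 0.0530).

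Ifng over tdT within Sca-1+ cells had a log2 fold change of 4.67 ± 1.36 and missed the threshold (adjusted p = 0.120). It passed in 3 of 18 alternatives, among them DESeq2 (adjusted p = 0.00132) and the fit without the 3 libraries with liver transcripts (adjusted p = 0.0202). For Sca-1+ tdT- over Sca-1neg tdT- the log2 fold change was 1.57 ± 1.15 (adjusted p = 0.480), and for Sca-1neg tdT+ over Sca-1neg tdT- 0.92 ± 1.09 (adjusted p = 0.870). The tdT effects on Ifng in the Sca-1+ and Sca-1neg fractions differed by 3.75 ± 1.65, which did not pass (adjusted p = 0.391). Per 100 CPM of the T cell sum, Ifng was at 1.27 to 2.33 CPM in Sca-1+ tdT+, 0.164 and 1.15 in Sca-1+ tdT-, 0.106 to 1.88 in Sca-1neg tdT+ and 0.254 to 2.48 in Sca-1neg tdT-. Sca-1+ tdT+ thus lay above Sca-1+ tdT- and overlapped both Sca-1neg groups. The share of all genes with Sca-1+ tdT+ above Sca-1+ tdT- on this scale was not counted.

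Ifng shares 336 of its 1295 exonic bases with Gm49751, a gene model of the TEC class on the same strand. Gm49751 had 42, 58 and 143 counts in Sca-1+ tdT+, 22 and 0 in Sca-1+ tdT-, 8, 29 and 0 in Sca-1neg tdT+, and 0, 4 and 0 in Sca-1neg tdT-. Reads in the shared stretch could have been lost or assigned to either gene, depending on counting settings not given in the sources used here.

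Il13, a type 2 cytokine, was also highest in Sca-1+ tdT+ but did not pass. Il13 (chromosome 11, 53631324 to 53634702, minus strand) was at 1.97, 7.15 and 2.63 CPM in Sca-1+ tdT+, 1.14 and 0.167 CPM in Sca-1+ tdT-, 0.453, 0 and 0.0550 CPM in Sca-1neg tdT+, and 0.310, 0.132 and 0 CPM in Sca-1neg tdT-. The Sca-1+ tdT+ libraries lay above all others, and the nearest to them was Sca-1+ tdT- replicate 1 at 1.14 CPM. The log2 fold change was 4.46 ± 1.51 for Sca-1+ tdT+ over Sca-1neg tdT+ (adjusted p = 0.0791), with a call in 2 of 18 alternatives, DESeq2 (adjusted p = 0.00888) and the replicate block (adjusted p = 0.0427). It was 2.56 ± 1.59 for Sca-1+ tdT+ over Sca-1+ tdT- (adjusted p = 0.530), 2.11 ± 1.46 for Sca-1+ tdT- over Sca-1neg tdT- (adjusted p = 0.452) and 0.22 ± 1.40 for Sca-1neg tdT+ over Sca-1neg tdT- (adjusted p = 0.977). Per 100 CPM of the T cell sum, Il13 was at 0.511 to 0.874 CPM in Sca-1+ tdT+ and at 0.328 and 1.98 in Sca-1+ tdT-. On that scale Sca-1neg tdT+ ran from 0 to 1.56 and Sca-1neg tdT- from 0 to 3.82, so the groups overlapped.

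Mast cells and basophils are another source of Il13 in skin, so their markers were read beside it. The summed level of 8 mast cell and basophil genes was 4.31 to 10.9 CPM in Sca-1+ tdT+, 42.4 and 68.5 CPM in Sca-1+ tdT-, 12.6 to 26.5 CPM in Sca-1neg tdT+ and 4.97 to 9.69 CPM in Sca-1neg tdT-. That sum is mostly Hdc, at 36.6 and 61.8 CPM in Sca-1+ tdT-, and Kit, at 5.47 to 6.53 CPM there, and both are expressed by other cells too. Of the defining markers, Fcer1a was at 0 in every library, and Cpa3, Ms4a2, Mcpt4, Mcpt8 and Tpsb2 did not exceed 0.770 CPM in any. Their part in the Il13 levels was not tested.

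Il17a was barely detected. It had 0, 3 and 0 counts in Sca-1+ tdT+, 0 and 0 in Sca-1+ tdT-, 5, 0 and 0 in Sca-1neg tdT+, and 0, 0 and 0 in Sca-1neg tdT-, or 8 counts in all 11 libraries. It was removed by the low-count filter, and without the filter edgeR called it in no comparison (adjusted p = 0.803 to 1), so no difference was detectable at this depth. Zero counts over a whole group allow up to 0.0558 CPM in Sca-1+ tdT- and 0.0237 CPM in Sca-1neg tdT-, at 3 counts over the group. Il17f had 0 to 7 counts and Il22 0 or 1 count per library.

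Cd40lg, the helper cell ligand, was higher in Sca-1+ tdT+ than in Sca-1neg tdT+ and rested on 9 or fewer counts in each library outside Sca-1+ tdT+. Cd40lg (chromosome X, 57212143 to 57224042, plus strand) had 88, 122 and 139 counts in Sca-1+ tdT+, 9 and 0 in Sca-1+ tdT-, 0, 2 and 0 in Sca-1neg tdT+, and 0, 4 and 1 in Sca-1neg tdT-. These are 2.34, 6.92 and 7.17 CPM in Sca-1+ tdT+ and at most 0.284 CPM in any other library. Cd40lg passed for Sca-1+ tdT+ over Sca-1neg tdT+ (log2 fold change 7.14 ± 1.63, adjusted p = 0.0163). With 2 counts in Sca-1neg tdT+ the fitted size depends on the prior count, and the ratio of summed counts per total was 144 with a 95% counting interval of 39.6 to 1193. The call was lost in 2 of 18 alternatives, the 32-week libraries alone (adjusted p = 0.0823) and the fit without Sca-1neg tdT+ replicate 1 (0.0605).

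For Sca-1+ tdT+ over Sca-1+ tdT- the Cd40lg log2 fold change of 5.17 ± 1.69 missed the threshold (adjusted p = 0.166), and it passed in 3 of 18 alternatives. It was 1.72 ± 1.48 for Sca-1+ tdT- over Sca-1neg tdT- (adjusted p = 0.558) and -0.24 ± 1.63 for Sca-1neg tdT+ over Sca-1neg tdT- (adjusted p = 0.979). Per 100 CPM of the T cell sum, Cd40lg was at 0.904, 0.846 and 1.39 CPM in Sca-1+ tdT+, 0.494 and 0 in Sca-1+ tdT-, 0 to 0.275 in Sca-1neg tdT+ and 0 to 0.993 in Sca-1neg tdT-. On this scale the Sca-1+ tdT+ libraries lay above Sca-1+ tdT- and Sca-1neg tdT+, which held 9 and 2 Cd40lg counts in all. The share of all genes with that order on this scale was not counted. The Sca-1+ tdT+ libraries overlapped Sca-1neg tdT-, where Cd40lg in replicate 2 reached 0.993 from 4 counts. Cd40, its receptor, was at 0.479 to 1.29 CPM in Sca-1+ tdT+, 1.14 and 4.35 CPM in Sca-1+ tdT-, 0 to 1.23 CPM in Sca-1neg tdT+ and 0.0487 to 0.686 CPM in Sca-1neg tdT-.

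Within Sca-1+ tdT+, the 29-week library (replicate 1) was the lowest of the 3 for Tbx21, Ifng, Cd40lg, Il13 and Foxp3, and it also had the lowest T cell sum, 259 CPM against 818 and 515 CPM. For Gata3 it was the highest, at 536 CPM. With 1 library of that age in the group, age and library cannot be told apart. In Sca-1+ tdT- the 29-week library was the higher of the pair for all 6 of these genes.

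Counted over the whole set, 4 of the 8 members (Tbx21, Gata3, Ifng and Cd40lg) were called higher in Sca-1+ tdT+ than in Sca-1neg tdT+, where 5.94% of all genes tested were called higher and 12.7% called in either direction. One of the 8, Tbx21, was called for Sca-1+ tdT+ over Sca-1+ tdT-, where 0.394% of all genes were called higher and 2.74% in either direction. None was called for Sca-1+ tdT- over Sca-1neg tdT- (5.74% of all genes), for Sca-1neg tdT+ over Sca-1neg tdT- (0.064%) or for the difference of the tdT effect (0.483%). At an unadjusted p under 0.05 in edgeR these 3 contrasts held 1, 0 and 3 members, and DESeq2 called 1, 0 and 0. The comparisons share libraries: the Sca-1+ tdT+ group enters both contrasts in which members were called.

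Non-overlap of the libraries, a looser criterion, held for more members and more of all genes in both contrasts with member calls. All Sca-1+ tdT+ libraries exceeded all Sca-1neg tdT+ libraries for 6 of the 8 members, against 15.4% of all genes, and exceeded both Sca-1+ tdT- libraries for 5 of 8, against 15.8%. How many of all genes had the Sca-1+ tdT+ libraries above every other library, as Tbx21, Foxp3, Ifng, Cd40lg and Il13 did, was not counted. Both Sca-1+ tdT- libraries exceeded the Sca-1neg tdT- libraries for 2 of 8 (Tbx21 and Gata3, against 19.9%) and lay below them for 1 of 8 (Foxp3, against 26.4%), which is near the background. Between Sca-1neg tdT+ and Sca-1neg tdT- all 8 members overlapped, where 5.07% of all genes were higher without overlap. The Sca-1neg tdT+ group is the one that holds the library at tracer background, and without that library still none of the members passed.

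**Figure D2:**
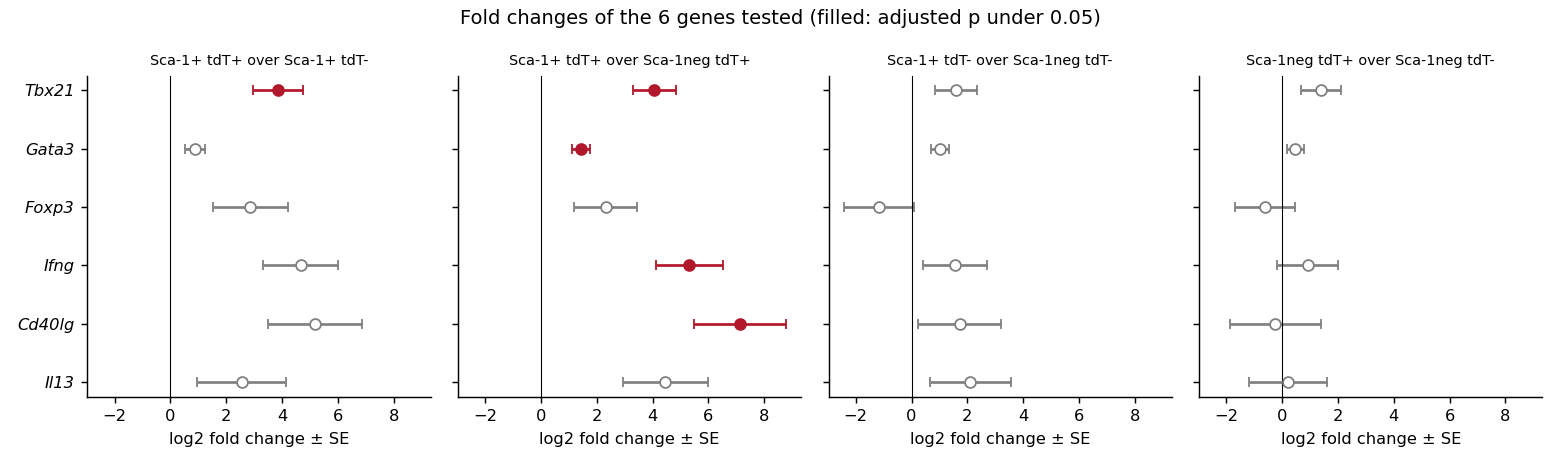
Log2 fold change with SE for the 6 members that passed the low-count filter, in each of 4 comparisons. Filled points passed the adjusted threshold of 0.05: Tbx21, Gata3, Ifng and Cd40lg for Sca-1+ tdT+ over Sca-1neg tdT+, and Tbx21 for Sca-1+ tdT+ over Sca-1+ tdT-.

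Divided by exonic length, the members could be ranked within a sort. In Sca-1+ tdT+ the levels per kilobase were 113 ± 36.9 CPM for Gata3, 7.53 ± 4.38 for Ifng, 6.23 ± 3.13 for Tbx21, 4.38 ± 2.17 for Cd40lg, 3.25 ± 2.34 for Il13, 0.285 ± 0.134 for Foxp3, 0.0484 ± 0.0839 for Il17a and 0.0273 ± 0.0473 for Eomes (mean ± SD, n = 3). Gata3 stood clear of the rest in every library. Of the next 4, Tbx21 exceeded Cd40lg in each of the 3 libraries (2.75, 7.11 and 8.83 against 1.87, 5.54 and 5.73 CPM per kilobase), while Ifng against Tbx21 and Cd40lg against Il13 changed order between libraries. In Sca-1neg tdT-, Gata3 was at 30.3 ± 7.98 CPM per kilobase and Tbx21 at 0.141 ± 0.0818 (n = 3), and Il13 came next at 0.122 ± 0.129.

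Across the 11 libraries, Ifng was the gene most like Tbx21 and most like Cd40lg, and both were among the 3 genes most like Ifng. Tbx21 and Cd40lg were not among the 3 nearest to each other (Pearson r = 0.955). Gata3 was not among the nearest genes of any other member. On log2(CPM + 0.5), the genes most like Tbx21 among 13298 candidates were Ifng (Pearson r = 0.98), Cd6 (0.97) and Xcl1 (0.97). Ifng was most like Cd40lg (0.99), then Tbx21 and Sit1, and Cd40lg was most like Ifng, then Sit1 (0.98) and Dgcr6 (0.97). Il13 had Olfr523 (0.97), Skap1 (0.95) and Ifng (0.95) nearest to it. The genes nearest to Gata3 were Chl1 (0.99), Rab3d (0.98) and Clip4 (0.98). These values describe 11 libraries in 4 groups that share the T cell differences given above, and they carry no test.

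**Figure D3:**
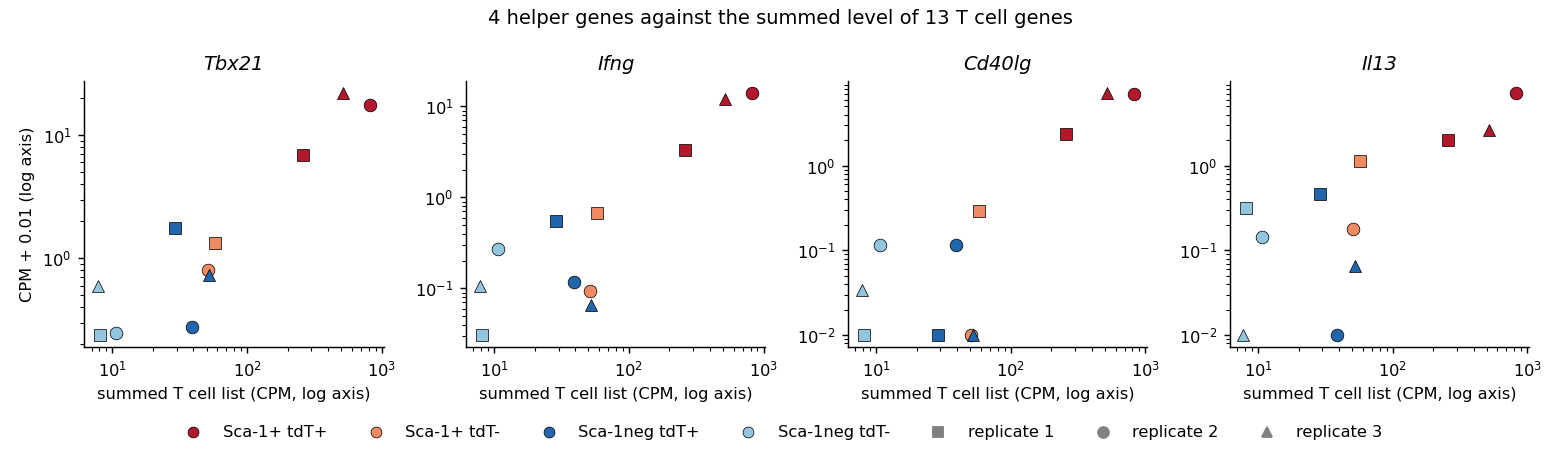
Tbx21, Ifng, Cd40lg and Il13 (CPM + 0.01, log axis) against the summed level of 13 T cell genes in the same library (CPM, log axis), with 1 point per library. The 3 Sca-1+ tdT+ libraries, with T cell sums of 259 CPM or more, lie at the upper right of each panel, and the other 8 libraries lie at 57.6 CPM or less.

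The wider programmes of the members were read from lists of related genes, which were chosen with earlier results known. Of the 78 listed genes tested, 24 were called for Sca-1+ tdT+ over Sca-1neg tdT+, 3 for Sca-1+ tdT+ over Sca-1+ tdT- and 14 for Sca-1+ tdT- over Sca-1neg tdT-, where 12.7%, 2.74% and 5.74% of all genes were called in either direction. Of 13 type 1 genes, 6 were higher in Sca-1+ tdT+ than in Sca-1neg tdT+, and none lower (median log2 fold change 2.31, against -0.07 over all genes). Besides Tbx21 and Ifng these included Runx3, a partner of T-bet (2.31 ± 0.33, adjusted p = 0.0014), the interleukin 12 receptor chain Il12rb1 (4.41 ± 1.26, adjusted p = 0.0443) and the chemokine Ccl5 (2.96 ± 0.85, adjusted p = 0.0448). For Sca-1+ tdT+ over Sca-1+ tdT- only Runx3 (1.68 ± 0.37, adjusted p = 0.0371) joined Tbx21, with a list median of 1.80. Runx3 was at 25.8, 27.3 and 37.2 CPM in Sca-1+ tdT+, 8.57 and 10.2 CPM in Sca-1+ tdT-, 5.66, 5.83 and 6.66 CPM in Sca-1neg tdT+, and 1.75, 3.06 and 1.29 CPM in Sca-1neg tdT-. The groups did not overlap in that order, and the share of all genes with such an order was not counted.

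In tdT- cells, 3 of the 13 type 1 genes were higher in Sca-1+ than in Sca-1neg libraries although neither Tbx21 nor Ifng was called. They were Runx3 (2.2 ± 0.35, adjusted p = 0.00741), Ccl5 (4.34 ± 0.96, adjusted p = 0.0264) and the homeobox gene Hlx (6.36 ± 1.03, adjusted p = 0.00793). Hlx, a type 1 cofactor that other cells express too, was highest in Sca-1+ tdT-, at 10.5 and 17.7 CPM. The 6 endothelial genes summed to 1674 and 1788 CPM there, against 5.12 to 440 CPM in the other 9 libraries, and their part in the Hlx difference was not tested.

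Of the 12 type 2 genes, 11 were tested and 3 were higher in Sca-1+ tdT+ than in Sca-1neg tdT+ (list median 1.14). Besides Gata3 these were Ccr8, a chemokine receptor of type 2 and skin-resident T cells (7.08 ± 1.11, adjusted p = 0.00246), and Areg, which encodes amphiregulin (2.52 ± 0.54, adjusted p = 0.0142). Ccr8 was at 3.94, 4.65 and 6.81 CPM in Sca-1+ tdT+, 1.17 and 0.126 CPM in Sca-1+ tdT-, 0.0453, 0.0535 and 0 CPM in Sca-1neg tdT+, and 0.144, 0.211 and 0.0975 CPM in Sca-1neg tdT-. Its Sca-1neg tdT+ group rests on 2 counts. In tdT- cells, Areg (2.71 ± 0.58, adjusted p = 0.0251) and the chemokine receptor Ccr4 (2.66 ± 0.61, adjusted p = 0.0298) were higher in Sca-1+ than in Sca-1neg libraries. For Sca-1+ tdT+ over Sca-1+ tdT-, none of the 11 passed in edgeR (3 at an unadjusted p under 0.05, 1 called by DESeq2). Il4, another type 2 cytokine, stood at 0.454 to 0.619 CPM in Sca-1+ tdT+, 0.377 and 1.11 CPM in Sca-1+ tdT-, 0.136 to 1.34 CPM in Sca-1neg tdT+ and 0.660 to 1.19 CPM in Sca-1neg tdT-. Its groups overlapped, and Sca-1+ tdT+ was not the highest.

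The type 17 genes moved in both directions. Of 9 tested, 1 was higher and 2 were lower in Sca-1+ tdT+ than in Sca-1neg tdT+, among them Rora (1.01 ± 0.23, adjusted p = 0.0163) and Sox13 (-2.2 ± 0.36, adjusted p = 0.00306). Sox13 was also lower in Sca-1+ tdT+ than in Sca-1+ tdT- (-2.21 ± 0.38, adjusted p = 0.0117). In Sca-1neg tdT-, with T cell sums of 7.80 to 10.6 CPM, Rora was at 65.7 to 87.8 CPM and Sox13 at 45.0 to 49.1 CPM. The part of T cells and of other cells in their levels was not tested.

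Of 11 tested genes of regulatory T cells, 4 were higher in Sca-1+ tdT+ than in Sca-1neg tdT+, although Foxp3 was not among them. They were the costimulator Icos, the Helios gene Ikzf2 (2.17 ± 0.57, adjusted p = 0.0409), and the receptors Tnfrsf18 (0.80 ± 0.16, adjusted p = 0.00888) and Tnfrsf4 (0.995 ± 0.225, adjusted p = 0.0157). Icos had 55, 77 and 26 counts in Sca-1+ tdT+ and 0 in every Sca-1neg tdT+ library, which makes it at least 43.4-fold higher per total count (3 counts over the group as the limit). The list median was 0.995 with Icos fitted or at that limit. Ikzf2 in tdT- cells was the 1 list gene called higher in Sca-1+ than in Sca-1neg (2.67 ± 0.62, adjusted p = 0.0409). Ctla4 was at 0.240 to 0.567 CPM in Sca-1+ tdT+, at most 0.0948 CPM in Sca-1+ tdT- and 0 in every Sca-1neg library. Il10 did not exceed 0.928 CPM in Sca-1+ tdT+ and reached 3.89 CPM in Sca-1+ tdT-. In Sca-1neg tdT-, with T cell sums of 7.80 to 10.6 CPM, Tnfrsf18 was at 27.6 to 35.6 CPM. Tnfrsf4 was at 20.0 to 26.3 CPM there and Ikzf2 at 5.44 to 20.3 CPM, while Icos was at 0.103 CPM or less. The part of T cells and of other cells in these differences was not tested.

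Among 5 tested follicular helper genes, Cd40lg and the transcription factor Ascl2 (2.63 ± 0.66, adjusted p = 0.0252) were higher in Sca-1+ tdT+ than in Sca-1neg tdT+. Of 7 tested cytokines shared between lineages, Tnf was higher in that contrast (2.07 ± 0.50, adjusted p = 0.0219) and in tdT- cells of Sca-1+ over Sca-1neg (3.83 ± 0.57, adjusted p = 0.00569). For Sca-1+ tdT+ over Sca-1+ tdT- neither list had a gene past the edgeR threshold, with 1 and 2 genes at an unadjusted p under 0.05 and as many called by DESeq2. The regulatory list had none there either, with 4 at an unadjusted p under 0.05 and 3 called by DESeq2. Over all 8 lists, 78 of 87 genes were tested, and none passed in edgeR for Sca-1neg tdT+ over Sca-1neg tdT- (14 at an unadjusted p under 0.05, 8 called by DESeq2) or for the difference of the tdT effect (14 and 5).

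Of 8 receptor chains of the member cytokines, 3 were higher in Sca-1+ tdT+ than in Sca-1neg tdT+: the interferon receptor Ifngr1 (1.34 ± 0.26, adjusted p = 0.00772), Il13ra1 (0.94 ± 0.17, adjusted p = 0.00472) and Il17rc (0.85 ± 0.14, adjusted p = 0.00321). In tdT- cells Ifngr1 (1.88 ± 0.28, adjusted p = 0.00592) and Il4ra (1.6 ± 0.30, adjusted p = 0.0146) were higher in Sca-1+ than in Sca-1neg libraries. Ifngr1 was at 109 to 152 CPM in Sca-1+ tdT+, 90.5 and 126 CPM in Sca-1+ tdT-, 32.5 to 70.8 CPM in Sca-1neg tdT+ and 27.2 to 33.7 CPM in Sca-1neg tdT-, so it separated by Sca-1 and overlapped between tdT+ and tdT- in the Sca-1+ fraction. None of the receptors passed for Sca-1+ tdT+ over Sca-1+ tdT- in edgeR, with 2 at an unadjusted p under 0.05 and 1 called by DESeq2.

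Of 14 signalling and target genes of these cytokines, Jak1 (0.69 ± 0.12, adjusted p = 0.00519) and Nfkbiz (1.04 ± 0.18, adjusted p = 0.00459) were higher in Sca-1+ tdT+ than in Sca-1neg tdT+, a count near the 12.7% of all genes called there. Jak1 (0.84 ± 0.14), Nfkbiz (1.09 ± 0.20), Gbp2 (2.52 ± 0.57) and Jak2 (0.86 ± 0.21) were higher in Sca-1+ tdT- than in Sca-1neg tdT- (adjusted p of 0.00821, 0.0124, 0.0368 and 0.037 in that order). None passed for Sca-1+ tdT+ over Sca-1+ tdT- in edgeR or DESeq2, with 1 at an unadjusted p under 0.05 (median -0.17, against 0.04 over all genes). The interferon-induced chemokine Cxcl9 was at 9.48, 1.76 and 8.40 CPM in Sca-1+ tdT+, where Ifng was highest, and at 23.9 and 11.5 CPM in Sca-1+ tdT-. Cxcl10, another such chemokine, was at 28.7, 6.92 and 45.2 CPM in Sca-1+ tdT+, 38.9 and 18.2 CPM in Sca-1+ tdT-, 13.6 to 18.5 CPM in Sca-1neg tdT+ and 3.66 to 11.2 CPM in Sca-1neg tdT-. For both chemokines Sca-1+ tdT+ overlapped the Sca-1neg groups, and neither passed in any comparison.

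Some of these list counts moved when the libraries that stand apart were left out, an alternative chosen after the data were seen. With Sca-1neg tdT+ replicate 2 left out, 2 of the 13 type 1 genes were called higher in Sca-1+ tdT+ than in Sca-1neg tdT+, in place of 6, and 2 of the regulatory genes, in place of 4. The fit without the 3 libraries with liver transcripts left 1 library in Sca-1neg tdT+. Its list counts for Sca-1+ tdT+ over Sca-1neg tdT+ are therefore not given. That fit called 3 type 1 genes higher and 1 lower for Sca-1+ tdT+ over Sca-1+ tdT-, where the fit of all libraries called 2 higher, and 1 gene in each of the regulatory, follicular, shared cytokine, receptor and signalling lists, where none had passed. Between Sca-1+ tdT- and Sca-1neg tdT- it called more genes higher in 6 lists, among them 5 type 1 genes in place of 3, 4 shared cytokines in place of 1 and 7 signalling genes in place of 4, while the type 2 count was 1 in place of 2. For Sca-1neg tdT+ over Sca-1neg tdT- its list counts are not given either, because of the 1 library left in Sca-1neg tdT+.

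**Figure D4:**
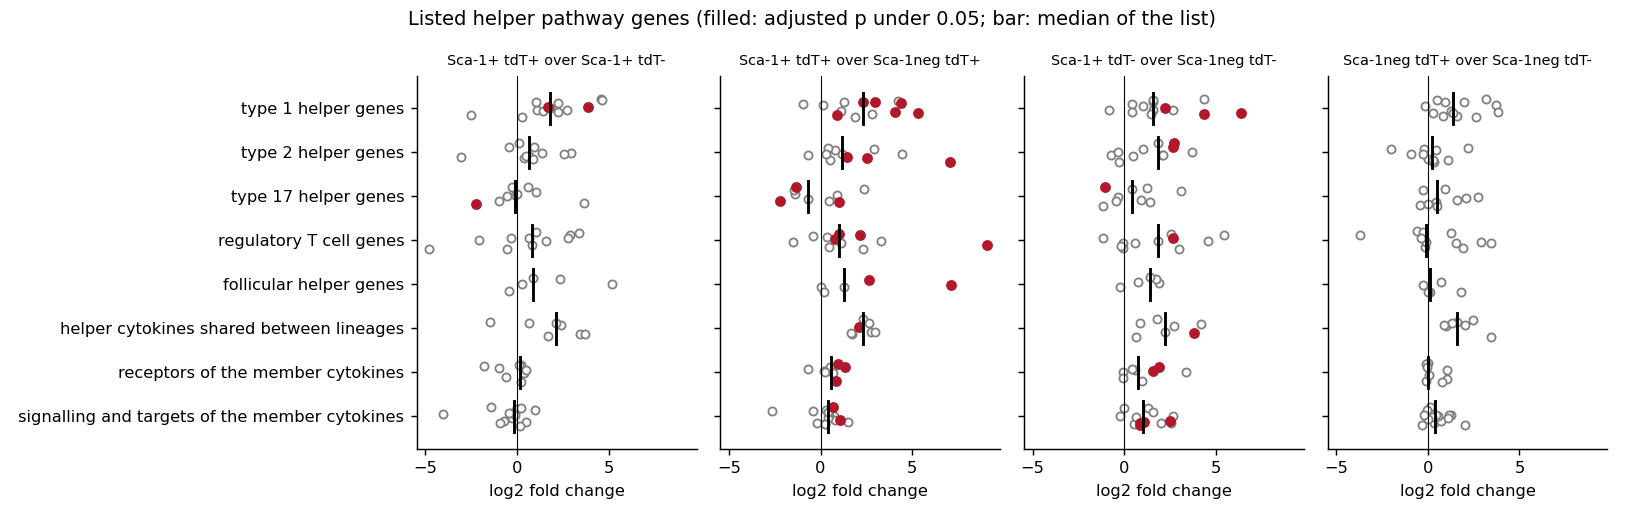
Log2 fold change of every tested gene of the 8 helper lists in each of 4 comparisons, with filled points past the adjusted threshold of 0.05. Type 1 genes had 6 filled points of 13 for Sca-1+ tdT+ over Sca-1neg tdT+ and 2 of 13 for Sca-1+ tdT+ over Sca-1+ tdT-, and no list had any for Sca-1neg tdT+ over Sca-1neg tdT-.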

How the data were processed

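RNA of 11 libraries was sequenced after TruSeq RNA v2 preparation, per the labels' protocols. The deposited files hold raw counts per Ensembl gene. Per the submitters' processing notes, the build was mm10 and the tools were STAR, featureCounts, FastQC, DESeq2 1.18.1 and bcl2fastq 2.20.0.422. How strand and shared reads were handled is not stated, so reads of overlapping genes may be split or lost. The tracer entry, filed under a protein identifier, stayed out of the tests, and its CPM are shares of the total count. GENCODE M21 gave symbols for all 55536 genes and exonic lengths.

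The low-count filter of edgeR 4.0.16 (R 4.3.3; filterByExpr by group) left 20307 genes and 6 of the 8 members. A robust quasi-likelihood model with TMM scaling fitted 4 group means over all libraries, with 7 residual degrees of freedom, Benjamini-Hochberg adjustment over all genes tested and a threshold of 0.05. SE was taken as |log2 fold change| over the root of F, which is approximate where a group has few counts. Levels are TMM-scaled CPM. Replicates are separate pools of mice as far as the labels tell, and p-values measure the spread between these libraries. On simulated data, 51% to 64% of 4-fold and 67% to 75% of 8-fold changes were recovered, depending on the comparison. The changed genes there had a mean of at least 1 CPM and the same starting level in every group. Foxp3, with a mean of 0.565 CPM, lay outside that range. Ifng, Cd40lg and Il13 were below 1 CPM in every Sca-1neg library, so these rates may not hold for them. Pairs of libraries differed beyond sampling noise, with chi-square divided by its degrees of freedom at 45.5 or more, so no copies were found.

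The 8 members and the lists were chosen with earlier results of these data known. The text names the members, up to 4 listed genes past the threshold by lowest p in each comparison, and the 3 genes most like each member with a mean of at least 1 CPM. The rule also allows the 2 most abundant genes of a list with no call, which are not printed. Il12rb1 and Ccl5 for Sca-1+ tdT+ over Sca-1neg tdT+, and Il4, Il10, Ctla4, Il17f, Il22, Cd40, Cxcl9, Cxcl10, Hdc, Kit and the mast cell markers, were named outside that rule after their values were seen. Some listed genes that the rule covers are not reported here. Alternatives were DESeq2 1.42.0, its size factors in edgeR, no filter, a replicate block, the 32-week libraries alone, the compared groups alone, leaving out the 3 libraries with liver transcripts, and leaving out each library in turn. List counts without the libraries that stand apart were added after the data were seen.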

Additional observations from a re-analysis of the deposited data

How the results depend on the processing

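Tbx21 for Sca-1+ tdT+ over Sca-1neg tdT+ was called in all 18 alternatives. For Sca-1+ tdT+ over Sca-1+ tdT-, the number of members called, 1, became 3 with DESeq2, 3 without the 3 libraries with liver transcripts, 3 with only the compared groups, 0 with the replicate block and 0 in the 32-week libraries alone, and ran between 0 and 1 when single libraries were left out. Tbx21 there had an adjusted p of 0.0709 with the block, 0.218 at 32 weeks and up to 0.464 with a library left out; the lowest over the alternatives was 3.79e-05. For Sca-1+ tdT+ over Sca-1neg tdT+ the number, 4, became 2 at 32 weeks and ran between 2 and 4 with a library left out, reaching 2 without Sca-1neg tdT+ replicate 1 (Gata3 adjusted p = 0.0547, Cd40lg 0.0605). For Sca-1+ tdT- over Sca-1neg tdT-, 0 became 1 with DESeq2 (Gata3, log2 fold change 1.11, adjusted p = 0.00884). The cause of these changes was not tested. Leaving out the libraries with liver transcripts left 1 library in Sca-1neg tdT+. The 32-week fit left 1 in Sca-1+ tdT-, as did leaving out either library of Sca-1+ tdT-. The replicate numbers were not taken to pair the libraries, since no label says that a number marks a shared litter or day. Replicate 1 was nevertheless the 29-week pool in every group. Deviations of same-numbered libraries correlated between -0.51 and 0.71 and exceeded 0.1 in 8 of 15 pairs. The lowest value was between replicates 1 of Sca-1neg tdT+ and Sca-1neg tdT-, of which only the first held liver transcripts (Alb at 9554 against 3.03 CPM). By contrast, 3 of 30 differently numbered pairs exceeded 0.1, and 8 of 11 libraries correlated best with their own number, a hint of pairing in the data. The block otherwise added a call of Il13 for Sca-1+ tdT+ over Sca-1neg tdT+ and left the other member calls as they were.

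Signs changed only in uncalled contrasts with few counts, some of them in fits that left 1 library in a compared group. For Sca-1neg tdT+ over Sca-1neg tdT-, the log2 fold changes of Ifng and Il13 became -1.11 and -1.13 at 32 weeks and -0.0462 and -1.46 without the libraries with liver transcripts, and with a library left out they ran from -0.60 to 1.99 for Ifng, -3.45 to 1.29 for Cd40lg and -2.28 to 1.35 for Il13. For Sca-1+ tdT- over Sca-1neg tdT-, Ifng and Cd40lg became -1.07 and -3.81 at 32 weeks, and ran from -0.57 to 2.64 and from -3.40 to 3.26 with a library left out. Of the refitted member fold changes, 491 kept sign and side of the threshold, 14 changed sign, 16 lost a call and 9 gained one. Of the list counts without the libraries that stand apart, 60 stayed within 1.5 times and 20 moved further.

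Counts of all genes called moved more. DESeq2 called 400, 1470, 4652, 2950 and 841 genes for Sca-1neg tdT+ over Sca-1neg tdT-, Sca-1+ tdT+ over Sca-1+ tdT-, Sca-1+ tdT+ over Sca-1neg tdT+, Sca-1+ tdT- over Sca-1neg tdT- and the difference of the tdT effect, against 13, 556, 2572, 1166 and 98 in edgeR. In that order the 32-week libraries gave 0, 64, 345, 9 and 0. Without the libraries with liver transcripts the counts were 38, 1286, 2221, 2072 and 220, without the filter 81, 639, 2156, 1089 and 234, and with only the compared groups 0, 957, 1584 and 2003 for the first 4; DESeq2 size factors gave 156 for the difference. With a library left out they ran from 0 to 14, 145 to 791, 1591 to 3040, 116 to 1665 and 26 to 347.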
